A study of Mus musculus with 2 samples.

Results

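The interferon regulatory factors are DNA-binding proteins that turn interferon and pathogen signals into transcription and also steer the development of immune cells. Irf1, Irf2, Irf3, Irf5, Irf8 and Irf9 are described here, 6 genes of 31017 gene symbols in a single-cell RNA table of mouse spleen. They were chosen by name and not by a measured value. Each was counted in raw unique molecular identifiers (UMIs, counts of single captured transcripts) and compared across cell types set apart by lineage marker genes, none of which is an Irf gene.

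The samples were 1 spleen of WAS-KO mice and 1 spleen of WT mice, 6 to 8 weeks old. Wiskott-Aldrich syndrome is an immune deficiency caused by loss of WASP, an actin regulator of blood cells, and both samples carry its name as their mouse model. The 7524 barcodes stand in 1 table, all with the same suffix and each sequence present once, and nothing ties a cell to a sample. The cells were therefore treated as 1 pooled sample, and the genotypes were not compared. Was, the gene named by the model, had 2876 UMIs in the pooled cells, which cannot be split by genotype. Every interval below is a 95% counting interval, without replicate error and without a p-value, since cells are not replicates.

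Of the barcodes, 6588 had at least 200 genes and at most 10% mitochondrial UMIs, with 44751473 UMIs in all and a median of 5339 per cell. Lineage gates took 5697 of these cells, 304 matched more than 1 gate about equally and 587 matched none. The kept cells held 3570 UMIs of Irf1, 8016 of Irf2, 1892 of Irf3, 3066 of Irf5, 12571 of Irf8 and 3006 of Irf9. Levels are given as CPM, the UMIs of a gene per 1000000 UMIs of a cell type. They are used here to compare cell types for 1 gene and not genes with each other. Cd79a, a B cell receptor subunit, was detected in 99.7% of B cells, and Cd3e, a T cell receptor subunit, in 95.6% of T cells. Ncr1, an NK cell receptor, was detected in 97.7% of NK cells. All of these are among the markers listed for those cell types, so their detection follows in part from the gates.

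In this family, IRF3 and IRF5 wait in the cytoplasm and are activated by kinases downstream of nucleic acid sensors and Toll-like receptors. IRF9 is the DNA-binding part of the complex that carries type I interferon signals to interferon-stimulated genes. IRF1 activates antigen presentation genes after interferon gamma, IRF2 binds many of the same sites and can oppose it, and IRF8 directs the development of type 1 conventional and plasmacytoid dendritic cells and of monocytes.

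All 6 genes lie on the plus strand of GRCm38. Irf1 lies on chromosome 11 from 53770014 to 53778374, and Irf2 on chromosome 8 from 46739732 to 46847458. Irf3 lies on chromosome 7 from 44997648 to 45002848, and Irf5 on chromosome 6 from 29526625 to 29541871. Irf8 lies on chromosome 8 from 120736358 to 120756694, and Irf9 on chromosome 14 from 55603571 to 55610030. Irf3 overlaps Bcl2l12 and Irf5 overlaps Tnpo3, both on the opposite strand, while Irf9 overlaps Rnf31 and Irf8 overlaps Gm20388 on the same strand. Irf1 overlaps Gm17334, and Irf2 overlaps Gm45479, Gm31172 and Gm45481, on the opposite strand. Whether the counting used the strand was not stated in the labels, so reads from these overlaps cannot be told apart.

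The bases before the RefSeq start of 3 members are shown because they hold motifs through which interferon signals reach promoters. The GAS motif (TTCNNNGAA, the gamma-activated site, with the same letters on both strands) was found in the first promoter of Irf1, Irf2 and Irf8. The ISRE-type motif (GAAA, any 2 bases and GAAA, or TTTC, any 2 bases and TTTC on the other strand) was found in that of Irf2. Capitals mark the matches. Each line gives 250 bases, 5′ to 3′, of the plus strand in GRCm38.p6 from RefSeq, at chr11:53769764-53770013 for Irf1, chr8:46739495-46739744 for Irf2 and chr8:120736108-120736357 for Irf8.
Irf1: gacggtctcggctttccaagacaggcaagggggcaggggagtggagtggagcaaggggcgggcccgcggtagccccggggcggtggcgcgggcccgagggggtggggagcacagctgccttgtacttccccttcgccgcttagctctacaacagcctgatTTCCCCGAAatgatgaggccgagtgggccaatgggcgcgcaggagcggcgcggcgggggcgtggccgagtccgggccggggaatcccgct
Irf2: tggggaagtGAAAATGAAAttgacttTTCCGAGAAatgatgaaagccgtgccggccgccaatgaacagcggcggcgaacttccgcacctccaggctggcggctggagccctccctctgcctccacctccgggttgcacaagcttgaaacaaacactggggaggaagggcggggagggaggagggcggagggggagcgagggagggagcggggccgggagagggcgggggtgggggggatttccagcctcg
Irf8: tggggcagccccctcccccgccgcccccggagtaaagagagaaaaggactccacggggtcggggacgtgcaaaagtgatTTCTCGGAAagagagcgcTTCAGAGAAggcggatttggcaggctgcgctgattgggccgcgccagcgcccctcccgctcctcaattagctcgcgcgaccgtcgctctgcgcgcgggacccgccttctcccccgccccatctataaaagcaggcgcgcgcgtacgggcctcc

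Counted from the RefSeq start, the GAS matches begin at -90 in Irf1, at -224 in Irf2 and at -171 and -153 in Irf8. For Irf2 that start lies inside the gene span given above, which begins at 46739732. The last printed bases of Irf2 thus fall within that span. The ISRE-type match of Irf2 begins at -241 and overlaps none of them. All 6 members had a RefSeq promoter, 9 promoters in all, of which 3 held GAS and 1 the ISRE-type letters. Over 32851 mouse promoters of the same 300 bases, 8.3% held the GAS letters and 3.44% the ISRE-type letters. No match was found in the windows of Irf3, Irf5 and Irf9. A match is a run of letters and not a measured binding site.

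Irf8 varied most between cell types. Plasmacytoid dendritic cells, the main producers of type I interferon, had 3925 CPM (3559 to 4318), and type 1 conventional dendritic cells, which cross-present antigen, had 1362 CPM (1236 to 1497). NK cells followed with 819 CPM (775 to 865) and B cells with 430.0 CPM (420.5 to 439.6). Each of these steps, and the next one down, was larger than its counting interval. Mpo+ cells of the monocyte gate had 327 CPM, classical monocytes 292 CPM, nonclassical monocytes 260.3 CPM and red pulp macrophages 246 CPM. No neighbours among these 4 differed beyond counting error.

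Irf8 was lower in the remaining cell types. Migratory dendritic cells had 144 CPM (86.6 to 225), below red pulp macrophages and above type 2 conventional dendritic cells at 35.7 CPM (11.6 to 83.3). T cells had 29.2 CPM (25.7 to 33.2) and plasma cells 20.8 CPM (14.2 to 29.3), which did not differ from their neighbours above. Erythroid cells had 11.4 CPM (8.41 to 15.1) and neutrophils 8.77 CPM (4.79 to 14.7), both near the bottom.

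The highest level of Irf8 stood above its median cell type by 3.95 on the log2 scale, and 7.41% of 7412 genes with at least 500 UMIs had as large a value. Irf8 and Irf1 were the 2 of 6 members at least 4-fold above their median cell type, against 25.8% of those genes.

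**Figure D1:**
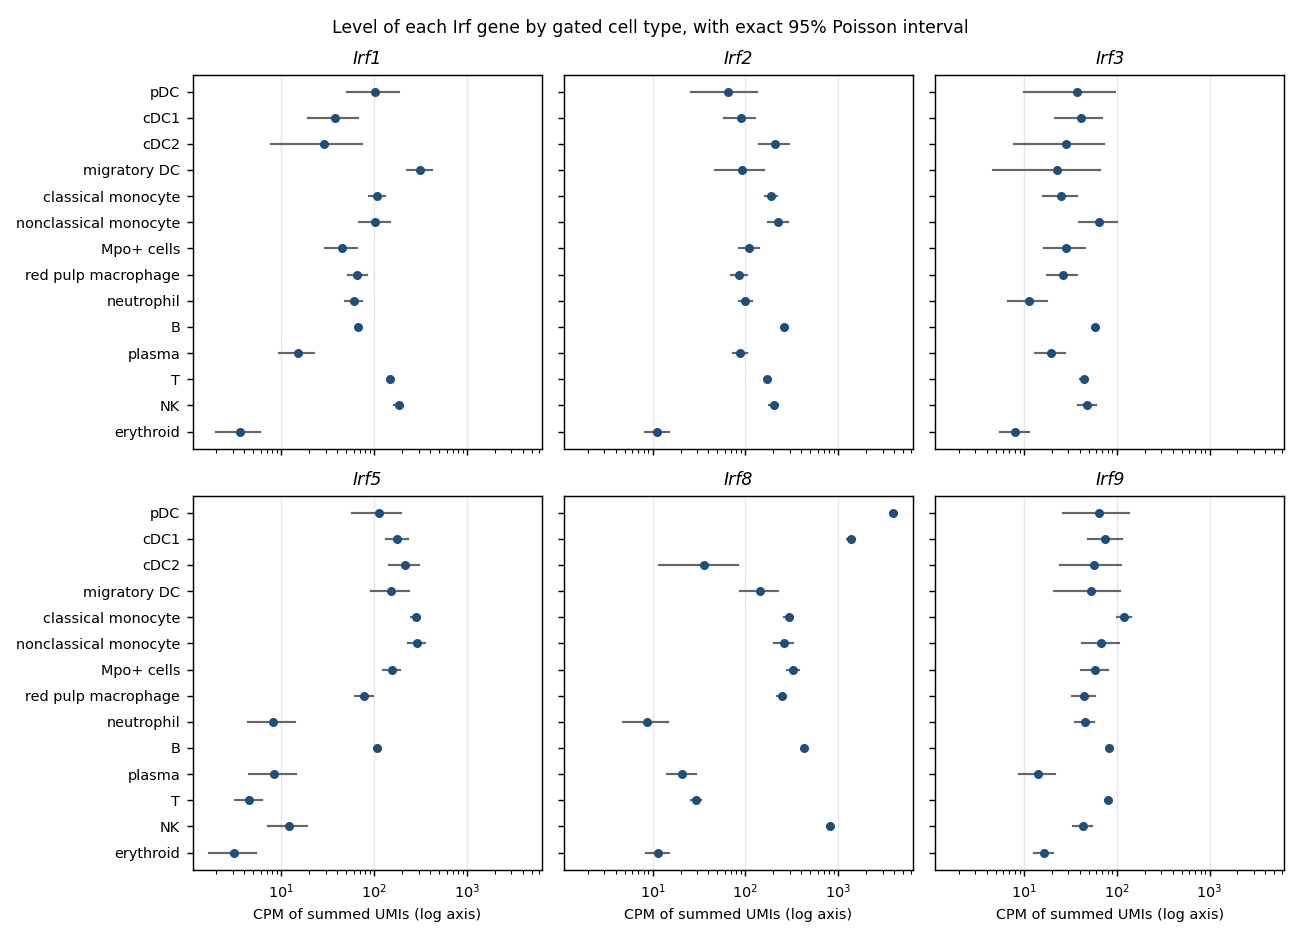
CPM of each of the 6 genes (horizontal log axis) in 14 gated cell types (rows), as points with exact 95% Poisson intervals; pDC stands for plasmacytoid, cDC1 and cDC2 for type 1 and type 2 conventional, and DC for dendritic cells. Irf8 reaches 3925 CPM in plasmacytoid dendritic cells, Irf1 is highest in migratory dendritic cells at 311 CPM, and Irf9 is highest in classical monocytes at 120.5 CPM.

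Some of the low values may be free RNA, since B cell transcripts were seen in other cells, with Cd79a in 19.7% of T cells and 17.9% of NK cells. T cells had 0.689 Irf8 UMIs per Cd79a UMI, neutrophils 0.467 and erythroid cells 0.417, against 0.131 in B cells. The part of free RNA in these levels was not tested. Of the 242 Irf8 UMIs of T cells, 31 came from 1 cell, and without it the level was 25.5 CPM.

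Cell by cell, Irf8 was common where its level was high. After thinning each cell to 1000 UMIs, it was detected in all 9 plasmacytoid dendritic cells, with a lower bound of 66.4%, and in 66.7% of 57 type 1 conventional dendritic cells (52.9 to 78.6%). It was detected in 56.7% of 307 NK cells (50.9 to 62.3%) and 34.05% of 2940 B cells (32.3 to 35.8%). T cells, which should hold little Irf8, gave 1.84% of 1089 (1.13 to 2.82%) and neutrophils 2.56% of 156 (0.703 to 6.43%). The 4 cell types named first lay above these by more than their intervals.

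Without thinning, Irf8 was detected in 93.2% of NK cells, 83.7% of B cells and 11.9% of T cells, with median depths of 4557, 5153 and 6946 UMIs. Cells under 1000 UMIs were left out of the thinned shares. This removed 10 B cells, 6 T cells, 5 type 1 conventional dendritic cells and no NK cell. Red pulp macrophages lost the most, with 203 of 483 cells kept.

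**Figure D2:**
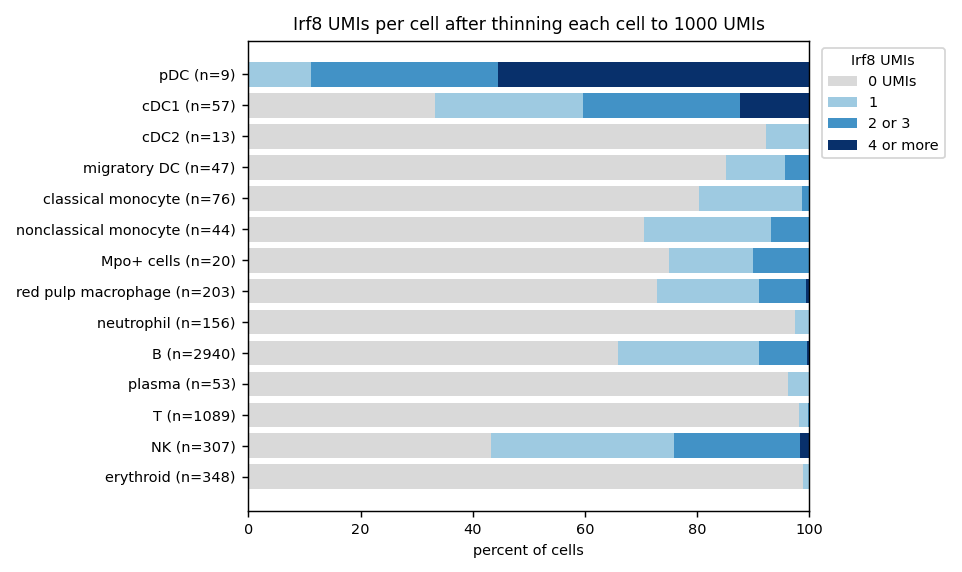
Percent of cells (horizontal axis) with 0, 1, 2 or 3, and 4 or more Irf8 UMIs after thinning to 1000 UMIs, for the gated cell types. In plasmacytoid dendritic cells 55.6% of cells held 4 or more and in type 1 conventional dendritic cells 12.3%, while most T cells held 0.

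Among dendritic cells, Irf8 set the types apart. Type 1 conventional cells were gated with Xcr1 or Clec9a, genes of cross-presenting cells, and type 2 with Clec10a, Cd209a or Clec4a4. Xcr1 was detected in 82.3% of 62 type 1 cells and in 0% of 13 type 2 cells, and Sirpa, a type 2 surface gene, in 8.06% of type 1 and 92.3% of type 2 cells. Irf8 ran from 0 to 3448 CPM with a median of 1193 CPM per cell in type 1 cells, and from 0 to 176 CPM with a median of 0 CPM in type 2 cells. Summed, the log2 ratio was 5.25 (4.02 to 6.88) on 431 and 5 UMIs. Irf8 was the 1 member with the 100 UMIs over both types that a gene count needed. It reached them only through the type 1 cells and could thus be counted only as higher. Of 524 such genes, 7.25% were at least 2-fold higher and 8.21% lower.

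Plasmacytoid dendritic cells were gated with Siglech, Klk1 or Cox6a2 and numbered 9. Siglech, their surface lectin, was detected in all 9, and Cd209a, a type 2 gate gene, in 77.8%. Irf8 ran from 3163 to 4898 CPM with a median of 3517 CPM per cell. The log2 ratio to type 2 conventional cells was 6.78 (5.55 to 8.41), on 422 and 5 UMIs. Irf8 was again the 1 member with 100 UMIs over both types, and reached them only through the plasmacytoid cells. It could thus be counted only as higher, beside 14.4% of 312 genes at least 2-fold higher and 11.2% lower.

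The other members did not share this order. Irf2 had 65.1 CPM in plasmacytoid, 88.5 CPM in type 1 and 90.9 CPM in migratory dendritic cells, against 207 CPM in type 2 conventional cells. The log2 ratios were -1.67 (-3.10 to -0.45), -1.23 (-2.03 to -0.43) and -1.19 (-2.29 to -0.17), on 7, 28 and 12 UMIs, against 29 in type 2 cells. Irf2 was thus lower in all 3 than in type 2 cells, where Irf8 was lowest. Irf5 had 112, 177 and 151 CPM in plasmacytoid, type 1 and migratory cells, against 214 CPM in type 2 cells, and all 3 intervals of the ratio held 0. Irf1 had 102 CPM in plasmacytoid and 28.6 CPM in type 2 cells, a log2 ratio of 1.84 (0.09 to 3.95) on 11 and 4 UMIs.

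Among the 14 main cell types, Irf1 was highest in migratory dendritic cells, gated with at least 3 of Fscn1, Ccl22, Cacnb3, Socs2, Il4i1 and Ccr7, genes of dendritic cells that carry antigen to T cells. It had 311 CPM (223 to 421) there, against 28.6 CPM (7.78 to 73.1) in type 2 conventional cells, a log2 ratio of 3.44 (1.98 to 5.38). These rest on 41 and 4 UMIs, and no member reached 100 UMIs over both types. Of 322 genes that did, 20.2% were at least 2-fold higher and 13.7% lower. Of the 52 migratory cells 19 held an Irf1 UMI, and without the richest cell their level was 261 CPM.

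Antigen processing genes known as targets of IRF1 and IRF2 were read in the same cells. Of 20 listed, 6 had 100 UMIs over migratory and type 2 conventional cells, of which 4 were at least 2-fold higher and 1 lower, with a median log2 ratio of 1.38 against -0.05 over all genes tested. Psme2, a proteasome activator subunit, stood highest, with 2068 CPM in migratory and 271 CPM in type 2 cells. Ciita, the activator of MHC class II genes, stood lowest, with 174 CPM in migratory and 607 CPM in type 2 cells. In plasmacytoid over type 2 cells, 0 of 4 were higher and 1 lower, and in type 1 over type 2 cells 3 of 8 were higher and 0 lower. Among those 3 is Cxcl9, a chemokine gene with 120 UMIs in type 1 and 0 in type 2 cells. It reached 100 UMIs through the type 1 cells alone and could thus be counted only as higher.

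Few of the 16 listed partners of IRF8 and dendritic cell regulators had enough UMIs in dendritic cells. Id2, an inhibitor of E proteins that type 1 conventional dendritic cells need, had 755 CPM in type 1 and 107 CPM in type 2 cells. Tcf4, the E protein of plasmacytoid dendritic cells, had 2316 CPM in plasmacytoid and 407 CPM in type 2 cells. Spi1, which encodes the IRF8 partner PU.1, had 420.2 CPM in type 1 and 493 CPM in type 2 cells.

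Irf5, which carries Toll-like receptor signals in myeloid and B cells, fell into a higher and a lower set of cell types. It was highest in nonclassical monocytes at 288 CPM (229 to 356) and classical monocytes at 279 CPM (247 to 314), which did not differ beyond counting error. Type 2 conventional (214 CPM), type 1 conventional (177 CPM), migratory (151 CPM) and plasmacytoid dendritic cells (112 CPM) followed, with Mpo+ cells (154 CPM) among them. No neighbours differed from there down to B cells at 107 CPM (102 to 112), which lay above red pulp macrophages at 78.2 CPM (62.8 to 96.2).

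Below red pulp macrophages came the lower set. NK cells had 19 Irf5 UMIs, plasma cells 13, neutrophils 13, T cells 37 and erythroid cells 13, and the last 4 stood at 8.43, 8.14, 4.47 and 3.09 CPM. No neighbours within this set differed beyond counting error. A subset of neutrophils with Cxcr2, described below, had 49.8 CPM (22.8 to 94.6) on 9 UMIs. T cells had 0.105 Irf5 UMIs per Cd79a UMI, against 0.0325 in B cells, and the part of free RNA was not tested.

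Neutrophils differed from classical monocytes most in Irf5 and Irf8. Irf5 had 8.14 CPM in neutrophils, against 279 CPM in classical monocytes, a log2 ratio of -5.10 (-6.03 to -4.30). Irf8 had 8.77 CPM in neutrophils, against 292 CPM in classical monocytes, a log2 ratio of -5.06 (-5.95 to -4.29). With Irf9, 3 of 5 members tested were at least 2-fold lower, against 43.6% of 2972 genes lower and 9.99% higher, so the count of members is near the background while both ratios lie far below the median gene at -0.85. Irf1 (-0.84) and Irf2 (-0.93) lay near that median, and Irf1 turned direction, to 0.02 with size factors and 0.63 as a mean of cells. Irf9 had -1.40, and -0.55 with size factors.

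Of 22 listed sensors, adaptors and kinases upstream of IRF3 and IRF5, 7 had enough UMIs in neutrophils and classical monocytes, and the others were not tested. All 7 were at least 2-fold lower in neutrophils, against 43.6% of all genes tested, with a median log2 ratio of -2.22 against -0.85. Ikbkb, a kinase of IRF5, stood lowest, with 23.8 CPM in neutrophils and 254 CPM in classical monocytes. Slc15a4, the lysosomal transporter needed for IRF5 activation, had 10.6 CPM in neutrophils and 105 CPM in classical monocytes. Ddx58, which encodes the RNA sensor RIG-I, differed least, with 45.7 CPM in neutrophils and 100.4 CPM in classical monocytes. Among 10 partners of IRF8, 6 were at least 2-fold lower, with Klf4, a monocyte factor, lowest at 1.25 CPM in neutrophils and 178 CPM in classical monocytes.

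Neutrophils were not uniform in Irf1, Irf2 and Irf9. Cells with Cxcr2, a receptor of mature neutrophils, were set beside cells with at least 5 UMIs of Ltf, a granule gene of immature ones. Irf1 had 316 CPM in 63 Cxcr2+ and 29.97 CPM in 16 Ltf+ neutrophils, a log2 ratio of 3.40 (2.32 to 4.68). Irf2 had 310.0 CPM in Cxcr2+ and 59.9 CPM in Ltf+ neutrophils, a log2 ratio of 2.37 (1.55 to 3.27). Irf5 had 49.8 CPM (22.8 to 94.6) on 9 UMIs in Cxcr2+ and 0 CPM (0 to 13.8) in Ltf+ neutrophils, too few UMIs for a ratio. The 8.14 CPM of Irf5 in all neutrophils thus lies below the level of the Cxcr2+ cells. No member reached 100 UMIs over both, and of 515 genes that did 41.6% were at least 2-fold higher and 12.8% lower, with a median of 0.56.

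Irf9 had 144 CPM in Cxcr2+ and 29.97 CPM in Ltf+ neutrophils, a log2 ratio of 2.26 (1.08 to 3.62). All 4 interferon-stimulated genes tested were at least 2-fold higher in the Cxcr2+ cells as well. Without cells in which such genes took 0.5% or more of UMIs, the log2 ratio was 3.27 for Irf1, 2.27 for Irf2 and 0.10 for Irf9, whose interval then held 0.

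Among monocytes, the intervals of Irf3 and Irf9 left out 0. Irf3 had 65.1 CPM in nonclassical and 25.1 CPM in classical monocytes, on 19 and 25 UMIs, a log2 ratio of 1.37 (0.43 to 2.29). Irf9 had 68.5 CPM in nonclassical and 120.5 CPM in classical monocytes, a log2 ratio of -0.81 (-1.58 to -0.12). Irf3 did not reach 100 UMIs over both and was not among the 5 members tested. None of those 5 passed 2-fold, against 7.44% of 2136 genes higher and 7.44% lower. Of 19 interferon-stimulated genes, 14 were at least 2-fold lower in nonclassical monocytes. Cells in which the listed interferon-stimulated genes took 0.5% or more of UMIs made up 7 of 44 nonclassical and 66 of 76 classical monocytes. The Irf9 ratio takes in all of these cells. The classical monocytes under 0.5% had 86.9 CPM of Irf9, on 13 UMIs. Tlr7, a sensor of single-stranded RNA, had 171 CPM in nonclassical and 85.3 CPM in classical monocytes, and Ddx58 had 34.3 and 100.4 CPM.

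The monocyte gate also held 20 cells with at least 2 of Mpo, Elane, Prtn3 and Ctsg, granule enzymes of myeloid precursors. Irf5 had 154 CPM in these Mpo+ cells and 279 CPM in classical monocytes, a log2 ratio of -0.86 (-1.21 to -0.51). Irf8 had 327 CPM in Mpo+ cells and 292 CPM in classical monocytes, a log2 ratio of 0.16 (-0.11 to 0.43). Irf5 was thus lower in Mpo+ cells, and Irf8 did not differ beyond counting error. Irf1 and Irf9 were the 2 of 5 members at least 2-fold lower, against 16.5% of 2514 genes lower and 10.5% higher. Cells high in interferon-stimulated genes made up 5 of 20 Mpo+ cells and 66 of 76 classical monocytes. Without those cells the log2 ratio was 0.35 for Irf1, which turned its direction, and -0.63 for Irf9, and both intervals held 0.

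Red pulp macrophages, which clear red cells, were lower than classical monocytes in Irf5, Irf2 and Irf9. Irf5 had 78.2 CPM in macrophages and 279 CPM in classical monocytes, a log2 ratio of -1.84 (-2.20 to -1.49). Irf2 had 85.2 CPM in macrophages and 189.7 CPM in classical monocytes, a log2 ratio of -1.15 (-1.52 to -0.79). These and Irf9 were the 3 of 5 members at least 2-fold lower, against 32.9% of 2842 genes lower and 7.78% higher. Haemoglobin took 30.9% of macrophage UMIs, the median macrophage had 882 UMIs and the median gene lay at -0.71. With totals free of haemoglobin and immunoglobulin, the log2 ratio was -1.30 for Irf5, -0.62 for Irf2 and 0.28 for Irf8, whose ratio was -0.25 with all genes in the totals, so that its direction turned.

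**Figure D3:**
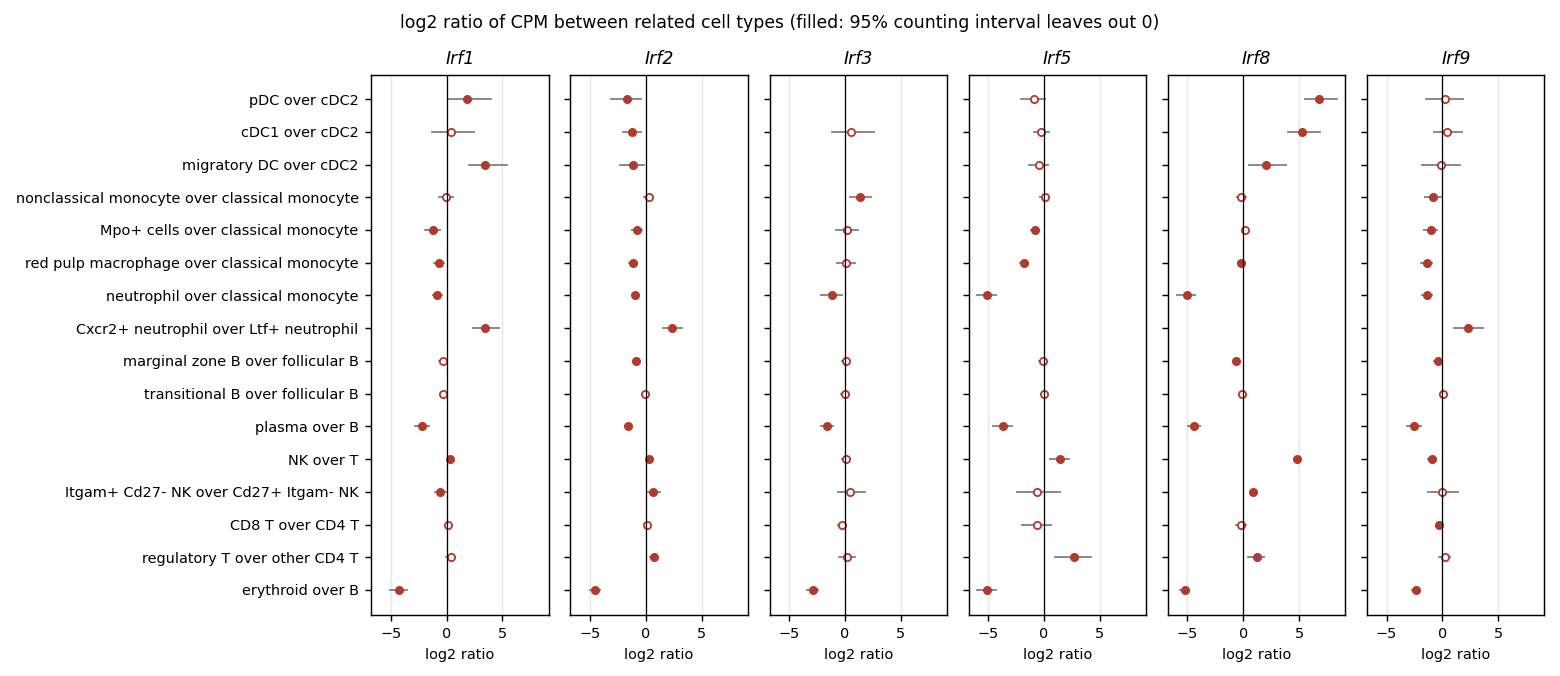
log2 ratio of CPM between related cell types (horizontal axis) for each of the 6 genes, with points as ratios and lines as exact 95% counting intervals. Filled points have an interval that leaves out 0, and a comparison with fewer than 10 UMIs of a gene over both cell types has no point. Irf8 covers the widest range, from -5.24 in erythroid over B cells to 6.78 in plasmacytoid over type 2 conventional dendritic cells.

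NK cells differed from T cells most in Irf8. Per cell, Irf8 ran from 0 to 5461 CPM with a median of 749 CPM in NK cells, and from 0 to 2582 CPM with a median of 0 CPM in T cells. Summed, NK cells had 819 CPM and T cells 29.2 CPM, a log2 ratio of 4.81 (4.61 to 5.01). Irf8 was the 1 of 5 members tested at least 2-fold higher, against 8.85% of 7613 genes higher and 6.95% lower. Irf9 ran the other way, with 43.1 CPM in NK and 81.5 CPM in T cells, a log2 ratio of -0.92 (-1.30 to -0.56). Irf1 (0.31) and Irf2 (0.25) lay near the median gene at 0.18, and with size factors their intervals held 0.

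NK cells also held few interferon-stimulated transcripts. In 2 of 307 NK cells these took 0.5% or more of UMIs, against 222 of 1095 T cells, and 20 of 32 such genes were at least 2-fold lower and 0 higher in NK cells. Slfn5 stood lowest, with 3.80 CPM in NK and 135 CPM in T cells. Of 10 partners of IRF8, 5 were at least 2-fold higher and 0 lower in NK cells, and Zeb2, a transcription factor of NK cell maturation, stood highest with 800.3 CPM in NK and 32.1 CPM in T cells. Ifngr1, a chain of the interferon gamma receptor, had 588 CPM in NK and 132 CPM in T cells, and its other chain Ifngr2 had 1.27 CPM in NK and 26.2 CPM in T cells.

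Within NK cells, Irf8 was higher in Itgam+ Cd27- cells, the more mature ones. They had 929 CPM, against 496 CPM in Cd27+ Itgam- cells, a log2 ratio of 0.90 (0.60 to 1.22). Irf2 had 211 CPM in Itgam+ Cd27- and 133 CPM in Cd27+ Itgam- cells, a log2 ratio of 0.67 (0.07 to 1.31). Irf1 had 171 CPM in Itgam+ Cd27- and 256 CPM in Cd27+ Itgam- cells, a log2 ratio of -0.58 (-1.05 to -0.09), which was -0.41 with an interval that held 0 without the richest cell of each group. None of 3 members tested passed 2-fold, against 1.94% of 1699 genes higher and 0.647% lower.

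NK cells were also set beside B cells. Irf8 had a log2 ratio of 0.93 (0.84 to 1.02) and Irf1 of 1.45 (1.26 to 1.63), while Irf9 had -0.95 (-1.32 to -0.60) and Irf5 -3.15 (-3.89 to -2.50). Irf1 was the 1 of 6 members at least 2-fold higher and Irf5 the 1 lower, against 11.3% of 8985 genes higher and 12.3% lower. Irf8 was thus higher in NK than in B cells, with a ratio under 2-fold and an interval that reached 2-fold.

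T cells were lower than B cells in Irf8 and Irf5 and higher in Irf1. Irf8 had 29.2 CPM in T and 430.0 CPM in B cells, a log2 ratio of -3.88 (-4.07 to -3.69). Irf5 had a log2 ratio of -4.58 (-5.09 to -4.11). Irf1 had 148 CPM in T and 67.4 CPM in B cells, a log2 ratio of 1.13 (1.02 to 1.25). Of 6 members, 1 was at least 2-fold higher and 2 lower, against 8.56% of 9478 genes higher and 10.3% lower. Irf9 had 81.5 CPM in T and 83.2 CPM in B cells, with an interval that held 0.

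Lists of related genes were read in T and B cells as well. Of 12 partners of IRF8, 8 were at least 2-fold lower and 2 higher in T cells, with Spib, an ETS partner of IRF8, lowest at 4.71 CPM in T and 318 CPM in B cells. Of 20 sensors, adaptors and kinases, 5 were at least 2-fold lower and 3 higher, so that this list ran both ways. Unc93b1, which brings Toll-like receptors to endosomes, had 17.5 CPM in T and 370.2 CPM in B cells. Ikbke, a kinase of IRF3, had 77.7 CPM in T and 4.56 CPM in B cells.

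CD8 and CD4 T cells were set side by side. None of 5 members tested passed 2-fold, against 2.02% of 6387 genes higher and 1.66% lower. Irf9 was the 1 member whose interval left 0 out, with 70.01 CPM in CD8 and 89.3 CPM in CD4 T cells, a log2 ratio of -0.35 (-0.61 to -0.10).

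Regulatory T cells, gated among CD4 cells by Foxp3, the factor that defines them, and related genes, had more Irf2 than other CD4 T cells. Irf2 had 248 CPM in regulatory and 149 CPM in other CD4 T cells, a log2 ratio of 0.73 (0.39 to 1.06). Irf8 had 57.2 CPM in regulatory and 25.1 CPM in other CD4 T cells, a log2 ratio of 1.19 (0.42 to 1.90). Irf5 had 7 UMIs in regulatory and 10 in other CD4 T cells, a log2 ratio of 2.64 with an interval that left out 0. Irf5 did not reach 100 UMIs over both and was not among the 5 members tested. Irf8 was the 1 of those 5 past 2-fold, against 4.04% of 4560 genes higher and 2.92% lower. However, 13 of the 21 Irf8 UMIs of regulatory T cells came from 1 cell, and the level was 22.5 CPM in regulatory and 22.5 CPM in other CD4 T cells without the richest cell of each.

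CD8 T cells with effector markers differed from other CD8 T cells in Irf1 and Irf8. Irf1 had 171 CPM in effector-marker and 126 CPM in other CD8 T cells, a log2 ratio of 0.44 (0.14 to 0.75). Irf8 had 31.6 CPM in effector-marker and 8.25 CPM in other CD8 T cells, on 66 and 8 UMIs, a log2 ratio of 1.94 (0.88 to 3.21). Irf8 did not reach 100 UMIs over both and was not among the 4 members tested. None of those 4 passed 2-fold, against 3.41% of 3927 genes higher and 0.84% lower.

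In B cells, marginal zone cells, the blood-facing B cells of the spleen, had less Irf2 and Irf8 than follicular cells. Irf2 had 154 CPM in marginal zone and 285 CPM in follicular cells, a log2 ratio of -0.88 (-1.10 to -0.67). Irf8 had 292 CPM in marginal zone and 457 CPM in follicular cells, a log2 ratio of -0.64 (-0.80 to -0.49). Irf9 followed with a log2 ratio of -0.41 (-0.75 to -0.08), and the intervals of Irf1, Irf3 and Irf5 held 0. None of 6 members passed 2-fold, against 2.11% of 7644 genes higher and 4.98% lower.

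Few partners of IRF8 and few sensors passed 2-fold between marginal zone and follicular cells, and the medians of these lists, -0.11 and -0.09, were close to that of all genes at -0.11. Bcl6, which encodes a transcriptional repressor, had 11.1 CPM in marginal zone and 56.95 CPM in follicular cells. Id2 had 62.1 CPM in marginal zone and 30.5 CPM in follicular cells. They were the 1 lower and the 1 higher of 12 partners of IRF8. Ticam1, the adaptor TRIF, was the 1 of 16 sensors, adaptors and kinases past 2-fold, with 25.5 CPM in marginal zone and 8.44 CPM in follicular cells. Of 33 interferon-stimulated genes, 9 were at least 2-fold lower and 0 higher.

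Transitional B cells, recent arrivals from the marrow, differed from follicular cells in no member beyond counting error. Their log2 ratios ran from -0.28 for Irf1 to 0.05 for Irf9, and none of 6 members passed 2-fold, against 1.73% of 7648 genes higher and 1.44% lower. A gate on Bhlhe41, a B-1 cell factor, took 32 B cells whose leading genes include the pancreatic enzyme genes Pnlip and Try4, so no cell type name is given to it. In these cells Irf8 had a log2 ratio to follicular cells of -0.49 (-0.78 to -0.22) and Irf2 of -0.44 (-0.79 to -0.10), and none of 6 members passed 2-fold, against 2.91% of 7413 genes higher and 9.74% lower.

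Plasma cells were lower than B cells in all 6 members, as in most genes. All 6 were at least 2-fold lower, against 64.6% of 8814 genes lower and 4.11% higher, and the median gene lay at -1.34. Immunoglobulin took 52.0% of plasma cell UMIs. Irf8 had 20.8 CPM in plasma and 430.0 CPM in B cells, a log2 ratio of -4.37 (-4.92 to -3.87) and of -3.35 with totals free of immunoglobulin and haemoglobin. Irf5 had a log2 ratio of -3.67 (-4.58 to -2.89) and of -2.65 with those totals, and Irf2 of -1.58 (-1.83 to -1.33) and -0.56.

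Erythroid cells were likewise lower than B cells in all 6, with haemoglobin at 75.1% of UMIs, and 86.1% of 8919 genes at least 2-fold lower and 3.9% higher. Irf8 had 11.4 CPM in erythroid and 430.0 CPM in B cells, a log2 ratio of -5.24 (-5.68 to -4.83) and of -3.27 with totals free of haemoglobin and immunoglobulin. Irf3 had a log2 ratio of -2.86 (-3.40 to -2.37) and of -0.90 with those totals, and Irf9 of -2.34 (-2.71 to -1.99) and -0.38, which turned to 0.10 with size factors. The median gene lay at -2.48, close to the ratios of Irf3 and Irf9.

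Irf2, Irf3 and Irf9 varied least. Among the 14 main cell types, which leave out subsets such as Cxcr2+ neutrophils, Irf2 was highest in B cells at 261 CPM (254 to 269), and nonclassical monocytes (226 CPM), type 2 conventional dendritic cells (207 CPM), NK cells (202 CPM), classical monocytes (189.7 CPM) and T cells (169.6 CPM) followed, with no neighbours apart beyond counting error. T cells lay above Mpo+ cells at 111 CPM. Irf3 showed no step between neighbours anywhere, from 65.1 CPM (39.2 to 102) in nonclassical monocytes to 8.08 CPM (5.60 to 11.3) in erythroid cells. Irf9 was highest among those 14 in classical monocytes at 120.5 CPM (99.9 to 144), above B cells at 83.2 CPM and T cells at 81.5 CPM. The share of genes with as large a distance from highest to median cell type was 51.9% for Irf2, 60.3% for Irf3 and 68.7% for Irf9.

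Irf1 was ordered differently. After migratory dendritic cells came NK cells at 184 CPM (163 to 206), T cells at 148 CPM (139.8 to 156) and classical monocytes at 107 CPM (88.02 to 129.8), each step larger than its counting interval, though with size factors the interval between NK and T cells held 0. B cells had 67.4 CPM (63.7 to 71.3). The lowest levels were those of plasma cells at 14.9 CPM and erythroid cells at 3.56 CPM.

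Irf9 moved with interferon-stimulated transcripts inside B cells. In 432 B cells, 35 interferon-stimulated genes took 0.5% or more of UMIs, and in 2518 less, with 142 cells within 10% of that limit. Irf9 had 149.6 CPM in the high cells, against 72.9 CPM in the low cells, a log2 ratio of 1.04 (0.86 to 1.21). It was the 1 of 6 members past 2-fold, against 1.43% of 8685 genes higher and 1.5% lower. Median depth was 4977.5 UMIs in high and 5191 UMIs in low B cells.

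T cells showed the same direction for Irf9. It had 132 CPM in 222 high T cells, against 69.3 CPM in 873 low T cells, a log2 ratio of 0.93 (0.69 to 1.16). None of 5 members tested passed 2-fold, against 1.31% of 7016 genes higher and 0.812% lower.

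The other members in B cells, and Irf1, Irf2, Irf3 and Irf8 in T cells, had smaller ratios than Irf9. Irf1 had a log2 ratio of 0.49 (0.28 to 0.70) in B and of 0.27 (0.07 to 0.46) in T cells. Irf2 had 221 CPM in high and 157 CPM in low T cells, a log2 ratio of 0.49 (0.32 to 0.67), against 0.17 (0.06 to 0.29) in B cells. Irf8 had 492 CPM in high and 420.3 CPM in low B cells, a log2 ratio of 0.23 (0.14 to 0.32), and Irf5 one of 0.03 (-0.16 to 0.22). In T cells Irf5 had 2.48 CPM in high and 4.95 CPM in low cells on 4 and 33 UMIs, a lower level by a ratio as large as that of Irf9, with an interval that held 0. Irf8 had a log2 ratio of 0.35 (-0.11 to 0.78) in T cells. Irf3 in T cells had 0.41 (0.05 to 0.76), which was -0.17 with a limit of 1% and -0.19 without Ifi27l2a, a gene that gives 31.3% of the list's UMIs.

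Over 4 classes of rising interferon-stimulated share, Irf9 in B cells had 61.8, 103, 151 and 145 CPM, and in T cells 53.9, 91.9, 111 and 172 CPM. Irf2 in T cells had 148, 170.2, 188 and 284 CPM and Irf3 in T cells 40.5, 43.9, 64.01 and 39.8 CPM. Irf9 was lowest in the lowest class of both cell types, and Irf3 followed no steady order.

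**Figure D4:**
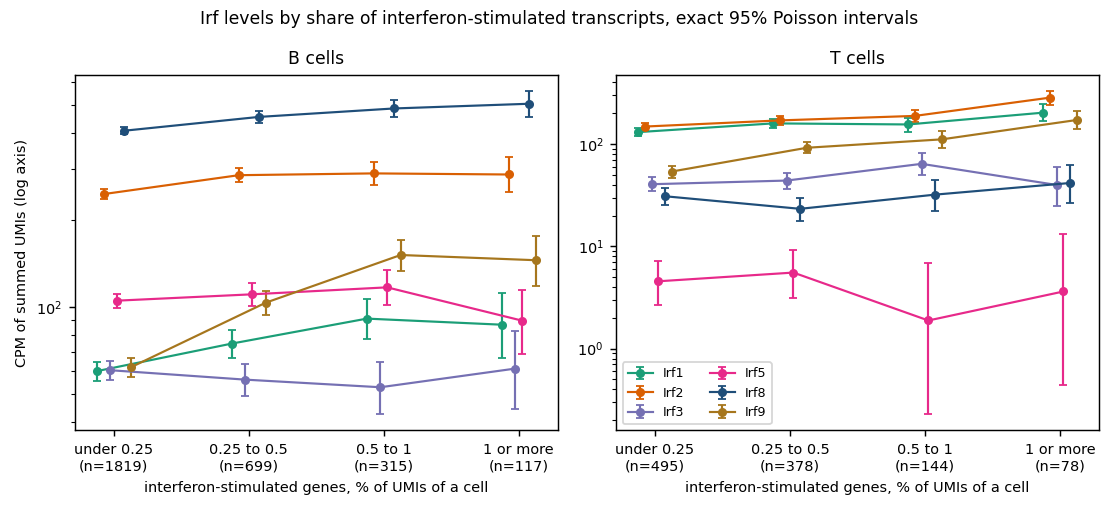
CPM of the 6 genes (vertical log axis) in B cells and T cells grouped by the percent of a cell's UMIs in interferon-stimulated genes (horizontal axis), with exact 95% Poisson intervals. In B cells, Irf9 has 61.8 CPM in the lowest class and 145 CPM in the highest, while Irf5 has 105 and 89.7 CPM.

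Genes of the interferon receptor pathway were read in the same B cells. Stat2, which encodes a partner of IRF9, had 87.5 CPM in high and 36.2 CPM in low B cells. The kinase gene Jak1 had 287 CPM in high and 316 CPM in low B cells. Stat2 was thus higher by more than 2-fold in the high cells and Jak1 was not.

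Of 18 sensors, adaptors and kinases, 3 were at least 2-fold higher and 0 lower in high B cells. Ifih1, which encodes the RNA sensor MDA5, stood highest with 28.6 CPM in high and 5.85 CPM in low cells. Of 16 antigen processing genes, Nlrc5, the activator of MHC class I genes, was the 1 past 2-fold, with 62.6 CPM in high and 25.5 CPM in low cells, and the list's median was 0.49 against -0.02 over all genes. None of 12 partners of IRF8 and none of 3 IRF2-binding proteins passed 2-fold.

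In classical monocytes, 66 cells were high and 10 low. Irf1 had 122 CPM in high and 26.7 CPM in low monocytes, on 103 and 4 UMIs, a log2 ratio of 2.19 (0.79 to 4.09), which was 0.47 without Ifi27l2a in the list. Irf9 had 126 CPM in high and 86.9 CPM in low monocytes, with an interval that held 0. Irf1 was the 1 of 5 members past 2-fold, against 3.48% of 1580 genes higher and 0.633% lower.

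Across the 14 cell types, the genes most like each member were found among 7412 genes by the Pearson correlation of log2(CPM + 1), given as a description, since the points share 1 table and differ in depth. For Irf8 these were Cul1 (0.90), Socs7 (0.85) and Chmp7 (0.84), the lowest values of any member, and for Irf5 Rassf4 (0.97), Ly86 (0.95) and 5031439G07Rik (0.94). For Irf1 they were Sugt1 (0.95), Vrk3 (0.94) and Ppp4r2 (0.94), and for Irf2 Ing4 (0.95), Gpr107 (0.95) and Nrbp1 (0.94). For Irf3 they were Ttc5 (0.95), Supt7l (0.94) and Zfp866 (0.94), and for Irf9 Vps11 (0.91), Use1 (0.90) and Ankfy1 (0.90). None of these is a gate marker. Between members, the correlation was highest for Irf2 and Irf3 (0.74) and lowest for Irf2 and Irf8 (0.27).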

How the data were processed

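Droplet libraries of spleen cells were made with a 3-prime protocol and unique molecular identifiers, and mapped to mm10-3.0.0, per the labels' protocols. No label names the mapping or counting program. What the authors deposited is raw UMI counts, whole numbers for each gene symbol in each barcode. The samples could not be told apart in the table, so no test between WAS-KO and WT was possible, and the edgeR test that counts would call for was replaced by counting intervals.

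From these counts, 936 of 7524 barcodes were removed (101 under 200 genes, 857 over 10% mitochondrial UMIs). A cell entered a gate if it had the needed number of markers and led the next gate by 0.2 in the share of markers detected. Megakaryocytes and platelets (20838 UMIs) fell under the minimum of 100000 UMIs for a cell type. Summed UMIs gave CPM with exact Poisson intervals, ratios carried exact conditional binomial intervals, and shares Clopper-Pearson intervals after thinning to 1000 UMIs, all at 95% and for counting error only. A ratio needed 10 UMIs over both cell types, and counts of genes past 2-fold needed 100. A gene with few UMIs in 1 cell type could enter such a count only through the other. A count of 0 allows up to 3 counts. Python 3.11.15, numpy 2.4.6, scipy 1.17.1 and scanpy 1.11.5 were used, and the ratio step was tested on simulated data. Doublets stayed in, and Scrublet calls served as an alternative. The named genes were the members, the 3 most alike genes of each, and the genes of each list with the largest and smallest ratios, of which a selection is given with a few others from the same lists chosen after their values were seen. The members and lists were chosen with earlier results of these data known, and the gates, the lead of 0.2, the 0.5% split and the NK, neutrophil, CD8 and Mpo+ subsets were set after the values were seen.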

Additional observations from a re-analysis of the deposited data

How the results depend on the processing

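No paired analysis was possible because the pooled table carries no replicate numbers. Of 78 ratios whose interval left out 0, the number within that interval was 54 with median-of-ratios size factors, 61 with totals free of haemoglobin and immunoglobulin, and 64 as means of per-cell CPM, and 73 to 78 with no mitochondrial maximum, 500 genes per barcode, stricter gates, Scrublet removal, a lead of 0.1 or without the richest cell. A mitochondrial maximum of 5% kept 60 of 75, and leaving out cells high in interferon-stimulated genes 60 of 68. The Irf8 log2 ratio of NK over T cells was 4.58 at 5% mitochondrial UMIs, 5.10 without the 137 doublets, 5.13 as a mean of cells and 4.50 with a lead of 0.1. Irf8 in plasma over B cells was -3.35 with the reduced totals, -3.05 with size factors, -3.58 as a mean of cells and -2.97 with a lead of 0.1. Irf8 in erythroid over B cells was -4.16 with 500 genes, -4.23 with stricter gates, -3.27 with the reduced totals and -2.80 with size factors. In neutrophils over classical monocytes, size factors gave -4.25 for Irf5 and -4.21 for Irf8, and the mean of cells gave -3.52 for Irf5. Irf2 in marginal zone over follicular B cells was -1.29 at 5% mitochondrial UMIs. Irf9 in B cells high over low in interferon-stimulated genes was 1.26 at 5% mitochondrial UMIs and 0.85 with a split at 1%, and in T cells 1.19 with that split. Without cells high in interferon-stimulated genes, Irf8 in regulatory over other CD4 T cells was -0.29 and Irf1 in Mpo+ cells over classical monocytes 0.35, with 10 classical monocytes left, and with size factors Irf9 in erythroid over B cells was 0.10. At 5% mitochondrial UMIs the plasmacytoid cells gave no value. The causes were not tested. The lead of 0.1, the richest cell and the list without Ifi27l2a were added after seeing the data. Of the 3 genes most like a member, 0 or 1 stayed by Spearman correlation. Depth limits the dendritic cell types, of which the plasmacytoid cells rest on 9 cells and 107520 UMIs.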
